A study of Lathyrus oleraceus with 6 samples.

Results

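Psat1g198520, Psat1g198600 and Psat1g198680 are 3 neighbouring pea loci on chromosome 1 whose best database match is a papain family cysteine protease, and they are 3 of the 44756 loci in the count table. They were chosen by their difference between CO8-DA and control roots in these libraries, together with their neighbouring identifiers and their shared description. Their treatment differences are therefore given as a description without a test. The locus identifiers carry the chromosome number, and their order is assumed to follow the chromosome. No coordinates are given.

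The RNA was taken from whole roots of wild-type pea (Pisum sativum, named Lathyrus oleraceus in the labels) of cultivar Frisson. Seedlings 4 to 5 days old stood for 24 h in 0.5x Jensen's medium alone, the control, or in that medium with 1e-05 M CO8-DA. CO8-DA is a mixture of deacetylated chitooligosaccharides, short sugar chains with a main length of around 8 units, and the comparison asks which transcripts respond to it. Each group has 3 libraries, each from the roots of several plants. Estimated counts summed to between 12315774 and 19534336 per library. Whole roots hold many cell types, so a change in the share of a cell type cannot be told apart from a change of RNA per cell. A check of the tissue against root and leaf markers was not made here, because the reference table matched 0 of the identifiers and the study's tables at hand describe only 2192 of the loci.

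Papain-type proteases cut proteins with a cysteine in their active site. They are made as inactive precursors whose inhibitory propeptide is removed in acidic places such as the vacuole, the lysosome-like compartment of plant cells, or at the cell surface. In plants they take part in senescence, in programmed cell death, in the turnover of storage proteins and in defence against microbes, and small proteins named cystatins block them. The annotation made for the study gives each of the 3 loci the peptidase domain (pfam00112) and the inhibitory propeptide domain. It ties Psat1g198600 and Psat1g198680 to developmental programmed cell death and to the vacuole.

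Counts of the 3 loci lay between 2 and 279 in the control libraries and between 550 and 2026 in the CO8-DA libraries. Psat1g198520 had 2, 2 and 20 counts in control replicates 1, 2 and 3 and 654, 550 and 828 counts in CO8-DA replicates 1, 2 and 3. On the CPM scale, which divides counts by the scaled library total so that libraries of unlike depth compare, these were 0.136, 0.163 and 1.43 in the control and 51.0, 34.6 and 42.4 after CO8-DA. The CO8-DA libraries stood close together and far above every control library, and control replicate 3 stood above the other controls. The mean level was 0.576 ± 0.739 CPM in control roots and 42.7 ± 8.24 CPM in CO8-DA roots (SD, n = 3). The fitted log2 difference was 6.17 (standard error 0.53). A count of 2 has an exact 95% Poisson interval of 0.242 to 7.22 counts. This interval covers counting error alone and leaves out the spread between plants and libraries. Reads were counted without molecular identifiers.

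Psat1g198600 had 73, 35 and 279 counts in control replicates 1, 2 and 3 and 1546, 1262 and 2026 counts in CO8-DA replicates 1, 2 and 3. The level was 4.95, 2.86 and 19.9 CPM in control roots and 121, 79.3 and 104 CPM in CO8-DA roots. The lowest CO8-DA library was well above the highest control, and the spread among the controls was again set by replicate 3. The mean was 9.25 ± 9.31 CPM in control roots and 101 ± 20.8 CPM in CO8-DA roots (SD, n = 3), a log2 difference of 3.44 (standard error 0.61).

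Psat1g198680 had 9.05, 13.32 and 96 counts in control replicates 1, 2 and 3 and 763.25, 613.75 and 896 counts in CO8-DA replicates 1, 2 and 3. The level was 0.610, 1.06 and 6.86 CPM in control roots and 59.5, 38.6 and 45.8 CPM in CO8-DA roots. The groups did not overlap here either. The members were chosen by this difference, and 25.4% of all tested genes had no overlap in either direction. The mean was 2.84 ± 3.48 CPM in control roots and 48.0 ± 10.6 CPM in CO8-DA roots (SD, n = 3), a log2 difference of 4.06 (standard error 0.67).

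**Figure D1:**
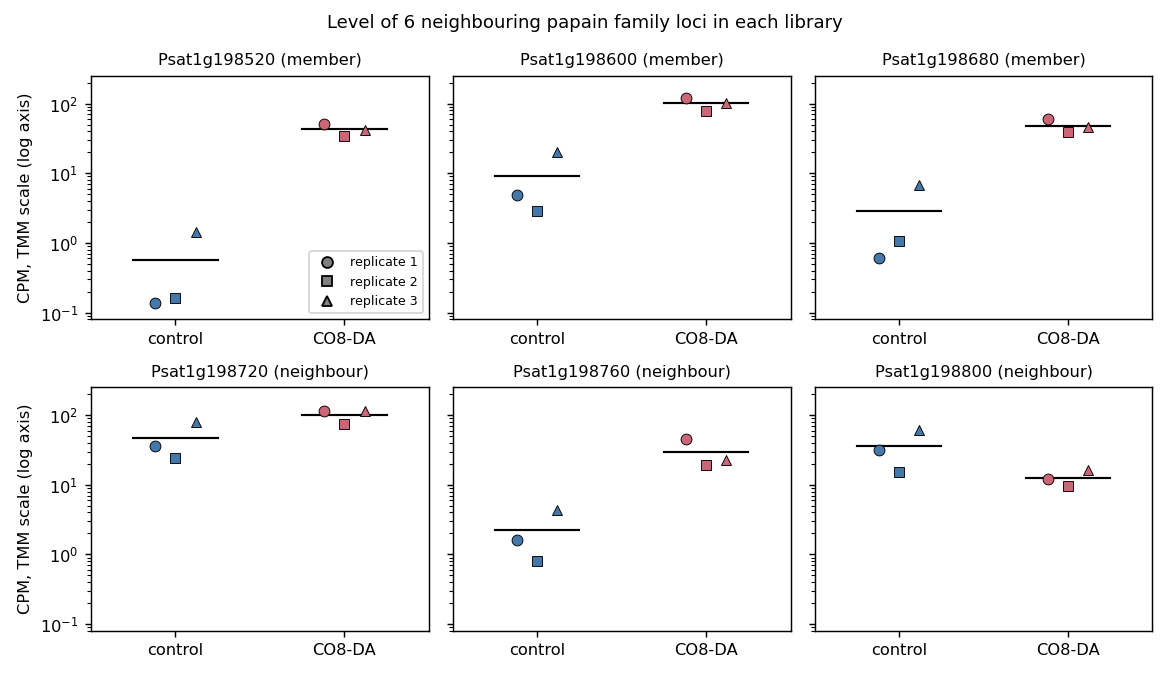
Level in CPM on a log axis of the 3 members and the 3 papain family loci next to them, by group, with a marker shape for each replicate number and a line at the group mean. Every CO8-DA library of the members, which were chosen by this difference, lies above every control library. Of all tested genes 25.4% have no overlap in either direction. Control replicate 3 (triangle) is the highest control for all 6 loci.

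RSEM, the counting program, divides a read that fits several loci, and a count that is not whole is a sign of such division. Counts of Psat1g198520 and Psat1g198600 were whole in all 6 libraries. Those of Psat1g198680 differed from a whole number by 0.005 or more in 4 of 6 libraries, so a part of its reads was divided with another locus. Psat1g198560 and Psat1g198640, whose identifiers fall between the members, had 0 counts over all libraries and 1 count in 1 CO8-DA library, respectively. Summed over the members, control replicates 1, 2 and 3 had 84.05, 50.32 and 395 counts and CO8-DA replicates 1, 2 and 3 had 2963.25, 2425.75 and 3750. On the CPM scale it was 12.7 ± 13.5 in the control and 192 ± 39.4 after CO8-DA (SD, n = 3), a log2 ratio of means of 3.92.

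The control libraries differed more from each other than the CO8-DA libraries did, in all 3 members. Control replicate 3 was 9.56 times the mean of control replicates 1 and 2 for Psat1g198520, 5.11 times for Psat1g198600 and 8.21 times for Psat1g198680. The highest CO8-DA library was 1.48, 1.52 and 1.54 times the lowest for the same loci. CO8-DA replicate 1 was highest and replicate 2 lowest for all 3 members.

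The size of the treatment difference therefore rested on control replicate 3. The CO8-DA mean of Psat1g198520 was 29.8 times the level of control replicate 3 alone and 285 times the mean of control replicates 1 and 2. These ratios were 5.08 and 25.9 for Psat1g198600, and 6.997 and 57.4 for Psat1g198680. Without control replicate 3 the log2 difference was 8.09 for Psat1g198520, 4.68 for Psat1g198600 and 5.86 for Psat1g198680. Over all 21293 tested genes control replicate 3 was the highest control for 29.1% of the genes, and for 43.1% of the 561 genes called higher after CO8-DA. For those 561 genes the median log2 difference of control replicate 3 from the mean of the other controls was 0.20. The part of this library in the results was not tested beyond leaving it out.

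The members also differed in size of change, which shows as a shift in their proportions. Reads of Psat1g198600 per read of Psat1g198520 were 36.5, 17.5 and 13.9 in control replicates 1, 2 and 3. After CO8-DA the same ratio was 2.36, 2.29 and 2.45. Reads of Psat1g198680 per read of Psat1g198520 went from 4.50, 6.50 and 4.80 to 1.17, 1.12 and 1.08. The control and CO8-DA libraries do not overlap in either ratio, but both divide by Psat1g198520, which had only 2 counts in control replicates 1 and 2. Reads of Psat1g198600 per read of Psat1g198680 were 8.11, 2.69 and 2.91 in control replicates 1, 2 and 3. After CO8-DA they were 2.03, 2.06 and 2.26, again without overlap but with a smaller shift from control replicates 2 and 3. Since locus lengths are not at hand, these ratios compare libraries and not transcript levels between the loci.

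The neighbourhood was taken as the 22 other loci with identifiers from Psat1g198120 to Psat1g199080, which is 10 identifier steps to each side of the members. Of these, 12 had enough counts to be tested with edgeR's quasi-likelihood test and 6 had no counts in any library. A gene was called at an adjusted p under 0.05 (Benjamini-Hochberg over all tested genes) and a log2 difference of 1 or more in size (the fold threshold). One neighbour, Psat1g198760, was called higher and 0 lower, where 2.63% of all tested genes were called higher and 0.493% lower. At an unadjusted p under 0.05, 2 neighbours were higher and 2 lower, where 2188 and 1885 of the 21293 tested genes were. DESeq2 called 1 neighbour higher and 1 lower. DESeq2, the tool of the study, called 3.17% of the genes higher and 0.855% lower.

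**Figure D2:**
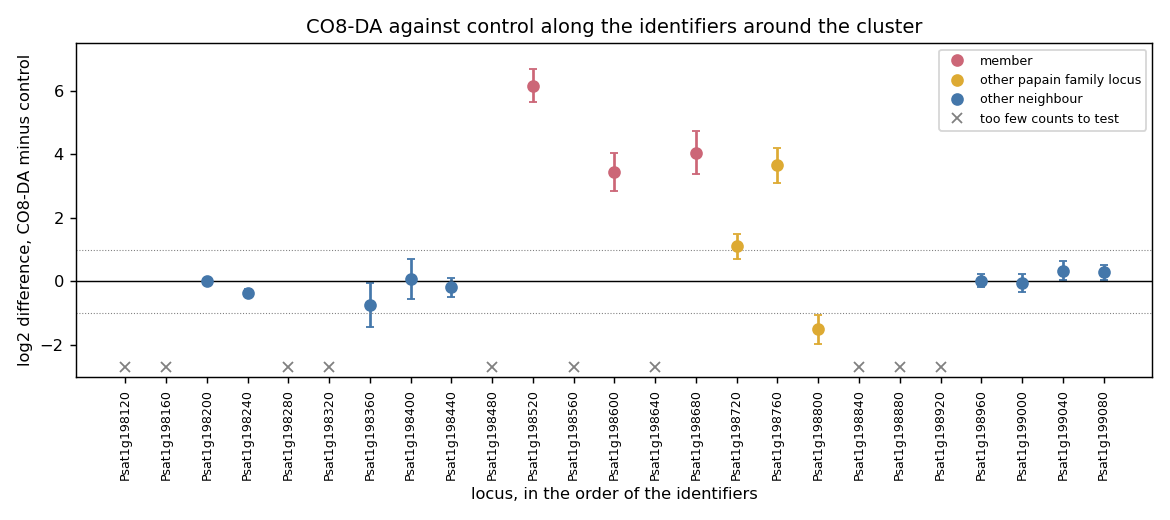
Log2 difference of CO8-DA minus control (y axis, bars are the standard error of the edgeR fit) for the members and their neighbours in identifier order, with crosses for the 10 loci that had too few counts to test and dotted lines at the fold threshold. The members and Psat1g198760 lie above 3 and Psat1g198800 lies at -1.50. The tested neighbours without a description, whose family is not known, lie between -0.75 and 0.34.

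The neighbours Psat1g198720, Psat1g198760 and Psat1g198800, follow the members directly in the identifier order and belong to the papain family as well. Psat1g198760 rose after CO8-DA, with 24.23, 10.32 and 59.65 counts in control replicates 1, 2 and 3 and 581.96, 305.86 and 439.74 counts in CO8-DA replicates 1, 2 and 3. Its level was 2.24 ± 1.82 CPM in control roots and 29.1 ± 14.3 CPM in CO8-DA roots (SD, n = 3), with no overlap between the groups, as for 25.4% of all tested genes. The log2 difference was 3.67 (standard error 0.55, edgeR adjusted p = 0.0104). The call was made with any one library left out (adjusted p from 0.00958 to 0.0382). Its best match is an uncharacterised soybean protein, but its annotation carries the same peptidase and propeptide domains and names the senescence-associated vacuole and defence against fungi.

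Psat1g198720 was high in the control already, with 536.59, 298.09 and 1102.49 counts there and 1455.17, 1203.03 and 2217.69 after CO8-DA. One control library overlapped with the CO8-DA group, since control replicate 3, at 78.7 CPM, lay above CO8-DA replicate 2, at 75.6 CPM. The log2 difference of 1.12 (standard error 0.39) failed the correction for multiple tests (edgeR adjusted p = 0.175, from 0.0353 to 0.257 in the other fits that keep all libraries). Without control replicate 3 the locus was called, at a log2 difference of 1.73 (edgeR adjusted p = 0.0216).

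Psat1g198800 had the opposite sign, with 467.82, 187.86 and 851.91 counts in control replicates 1, 2 and 3 and 153.96, 150.90 and 322.38 counts in CO8-DA replicates 1, 2 and 3. Its level was 36.0 ± 23.1 CPM in control roots and 12.7 ± 3.54 CPM in CO8-DA roots (SD, n = 3). The groups overlapped in 1 pair of libraries, with control replicate 2 at 15.3 CPM below CO8-DA replicate 3 at 16.5 CPM. The log2 difference of -1.50 (standard error 0.45) was not called by edgeR (adjusted p = 0.122). DESeq2 called it lower (adjusted p = 0.00494, and between 0.00494 and 0.123 in the fits that keep all libraries), and the study chose it with that tool on these libraries. Without control replicate 2 edgeR called it as well, at -1.87 (adjusted p = 0.0264), and without control replicate 3 the value was -0.89.

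These 3 neighbours had the same order of controls as Psat1g198600, highest in replicate 3 and lowest in replicate 2. Control replicate 3 was 2.59 times the mean of the other controls for Psat1g198720, 3.51 times for Psat1g198760 and 2.59 times for Psat1g198800. Counts of all 3 were not whole in any of the 6 libraries, so they share reads with other loci and their separate values are uncertain.

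The 6 papain family loci from Psat1g198520 to Psat1g198800 together had 97.4 ± 66.5 CPM in control roots and 334 ± 73.2 CPM in CO8-DA roots (SD, n = 3), a log2 ratio of means of 1.78. Their counts were divided differently in the groups. The 3 members held 7.55%, 9.21% and 16.4% of the counts of the 6 loci in control replicates 1, 2 and 3 and 57.5%, 59.4% and 55.7% in CO8-DA replicates 1, 2 and 3. Psat1g198800 held 42.0%, 34.4% and 35.4% in the control and 2.99%, 3.69% and 4.79% after CO8-DA. The share of Psat1g198720 lay between 45.8% and 54.5% in the control and between 28.2% and 33.0% after CO8-DA. The members' share did not overlap between the groups, and control replicate 3 had the highest share among the controls. In that library the 6 loci summed to 172 CPM, against 75.5 and 44.5 CPM in control replicates 1 and 2.

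**Figure D3:**
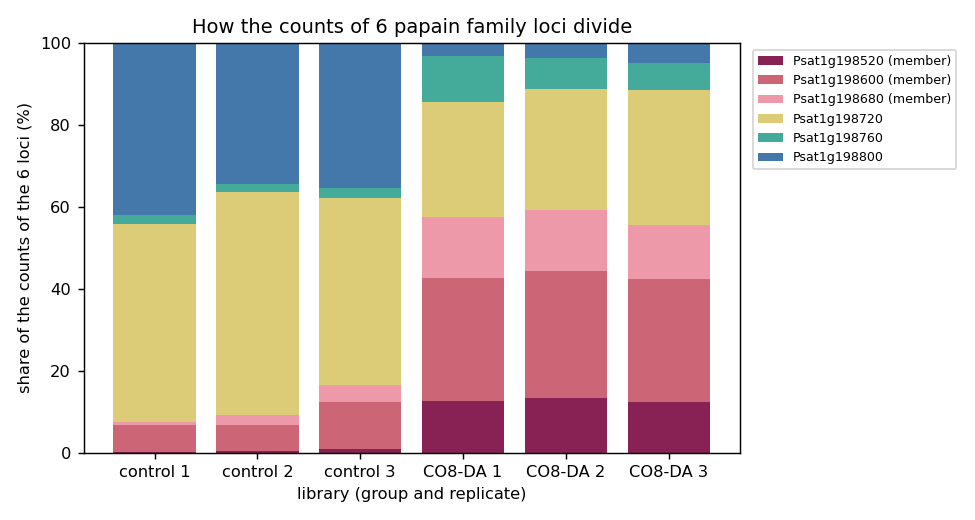
Share of the counts of the 6 papain family loci (y axis, percent) that falls to each locus in each library. The members (red shades) take 7.55% to 16.4% in the control libraries and 55.7% to 59.4% after CO8-DA, and Psat1g198800 (blue) takes at least 34.4% in the control and at most 4.79% after CO8-DA.

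The other 9 tested neighbours have no description in the tables used, so whether any belongs to the papain family is not known. Those tables mostly describe genes that changed, so an unchanged papain family neighbour could go unnamed. None of the 9 was called by edgeR or DESeq2, and 1 of them, Psat1g198240, had an unadjusted edgeR p under 0.05. Their median log2 difference was 0.01, against -0.01 over all tested genes. Psat1g198360, Psat1g198400 and Psat1g198440, the nearest tested loci before the members, also had their highest control level in replicate 3. Psat1g198360 had 26, 13 and 117 counts in control replicates 1, 2 and 3 and 23, 32 and 55 after CO8-DA, a log2 difference of -0.75 (standard error 0.69, edgeR adjusted p = 0.615). Psat1g198400 had 16, 5 and 41 counts in the control and 26, 13 and 37 after CO8-DA, a log2 difference of 0.08. Psat1g198440 had a log2 difference of -0.19. After the cluster, Psat1g198960, Psat1g199000, Psat1g199040 and Psat1g199080 had log2 differences of 0.03, -0.04, 0.34 and 0.30, and before it Psat1g198200 and Psat1g198240 had 0.01 and -0.36. Of the 15 members and tested neighbours 10 had their highest control level in replicate 3.

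Further papain family loci could be named only where the study's tables describe them. One of these holds genes the study chose on these libraries and the other was at hand only in its first 1999 lines. Every listed locus described in those lines had a higher level after CO8-DA. The described loci that fell, inhibitors and other peptidases included, appear only among the genes the study chose. The lists are therefore not complete, can miss loci that fell or stayed level, and give no independent evidence of direction. Beside the neighbours, Psat7g165760 and Psat0s3496g0080, both matched to a cysteine protease 12, have identical counts of 0.50 to 2.50 per library and stand for a single measurement too low to test. Of the 5 papain family loci outside the members, 3 were tested. Psat1g198760 is the one that was called, as higher, where 2.63% of all tested genes were called higher. It was listed through its domain annotation among the genes the study chose on these libraries, and not through its best match.

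Peptidase inhibitors were described at 7 loci, 3 of them tested, and 1 was called higher, where 2.63% of all tested genes were. The study had chosen all 3 tested loci with DESeq2 on these same libraries. Their DESeq2 calls below are therefore not independent evidence. The cystatin Psat0s3383g0160, of the protein family that blocks papain-type proteases, had 23.2, 8.40 and 24.4 CPM in control replicates 1, 2 and 3 and 42.5, 32.5 and 49.0 CPM in CO8-DA roots. All CO8-DA libraries were above all controls, where 25.4% of all tested genes had no overlap in either direction. The log2 difference of 1.14 (standard error 0.36) failed the correction for multiple tests (edgeR adjusted p = 0.134). By DESeq2 it passed (adjusted p = 0.0166, and between 0.0166 and 0.136 in the fits that keep all libraries). In this locus control replicate 3 was not set apart, at 1.55 times the mean of the others.

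Psat1g031840 carries a Kunitz inhibitor domain, typical of inhibitors of serine proteases, although its best match is named a lipid transfer protein. It rose from 6.10 ± 1.97 CPM to 16.2 ± 1.07 CPM (SD, n = 3), a log2 difference of 1.40 (standard error 0.22, edgeR adjusted p = 0.0131). The call needed CO8-DA replicates 2 and 3, since it was not made when either was left out (highest adjusted p 0.0582). The Kunitz type trypsin inhibitor Psat1g112600 had a log2 difference of -1.57 (standard error 0.41, edgeR adjusted p = 0.0829). DESeq2 called it lower (adjusted p = 0.00331, and between 0.00331 and 0.0997 in the fits that keep all libraries), and the study chose it with that tool on these libraries. The untested inhibitors were Psat2g010240, a cysteine proteinase inhibitor 5 with 4, 2 and 1 counts in the control and 3, 10 and 10 after CO8-DA, and 3 Kunitz loci, Psat1g031760, Psat1g122400 and Psat1g122520, with at most 18 counts in a library.

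Of 8 loci of other peptidase classes in the study's list of changed genes, 7 were tested, and edgeR called 4 of them higher and 2 lower. Over all tested genes 2.63% were called higher and 0.493% lower. Their median log2 difference was 1.06, against -0.01 over all tested genes. The study chose this list on the same libraries, with a log2 fold change of at least 1 in size. That choice favours calls and large differences, so neither the counts nor the median is independent evidence of a response or its direction. The matrix metalloproteinase Psat2g112760, a secreted metal-dependent protease, had 12, 8 and 15 counts in control replicates 1, 2 and 3 and 74, 61 and 82 counts in CO8-DA replicates 1, 2 and 3. Its log2 difference was 2.42 (standard error 0.30, edgeR adjusted p = 0.00454). The aspartyl proteases Psat2g017000 and Psat2g152320 rose by log2 differences of 1.21 and 1.12 (edgeR adjusted p = 0.00433 and 0.00340), and these 3 calls were made with any one library left out. The aspartic proteinase Psat5g252400 rose by 1.06, a call lost in 5 of the 6 fits that leave out a library (all but control replicate 1, adjusted p up to 0.0789, log2 difference from 0.89 to 1.16).

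The subtilisin-like serine protease Psat5g011280 fell, with 161, 99.5 and 124 CPM in control roots and 79.0, 55.4 and 43.1 CPM in CO8-DA roots, a log2 difference of -1.12 (edgeR adjusted p = 0.0467). The serine carboxypeptidase Psat7g191360 fell by 1.05 on the log2 scale (edgeR adjusted p = 0.0281). The call of Psat5g011280 fell away when CO8-DA replicate 2 or 3 or control replicate 1 or 3 was left out, and that of Psat7g191360 without control replicate 2 or 3 or any single CO8-DA library (highest adjusted p 0.179 and 0.116). The aspartyl protease Psat2g045400 was not called by edgeR, at a log2 difference of -1.23 (adjusted p = 0.0926). DESeq2 called Psat2g045400 lower (adjusted p = 0.00572), as did edgeR with a replicate block (adjusted p = 0.0130). No edgeR fit with a library left out called it. Psat2g187680, of the same class, had 0, 0 and 0 counts in the control and 7, 15.03 and 14.06 after CO8-DA. Set against 3 counts summed over the controls, about the upper 95% limit that counting error allows for a count of 0, its level was at least 10.2-fold higher. It did not pass the filter on low counts when all libraries were kept. Without that filter edgeR called it higher (adjusted p = 0.0191), and in the 4 fits with a library left out in which it passed the filter the adjusted p lay between 0.0283 and 0.0691.

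The log2 CPM profiles of the members over the 6 libraries were alike, with a Pearson r of 0.984 between Psat1g198520 and Psat1g198600, 0.988 between Psat1g198520 and Psat1g198680 and 0.983 between Psat1g198600 and Psat1g198680. These values describe 6 points that fall into 2 groups and share their libraries and scaling. Of 16287 tested loci outside the neighbourhood whose average log2 CPM was 2 or more, 200 had an r of at least 0.95 with the mean profile of the members. Of these 200, 129 were called higher after CO8-DA, where 2.63% of all tested genes were. The members were chosen for their difference between the groups, so loci that follow their profile separate the groups by that choice. The count of 129 is therefore not evidence of a shared response. The 5 with the highest r, between 0.993 and 0.999, were Psat5g144600, Psat1g029320, Psat5g246760, Psat6g020560 and Psat1g168800. They were chosen for this likeness, so their differences are given without a test.

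Psat5g144600 had the highest r and is matched to YLS9, which in Arabidopsis is a gene of the NDR1/HIN1-like family first found in yellowing leaves. It had 46.31, 38.26 and 72.1 counts in control replicates 1, 2 and 3 and 127.98, 149.63 and 196.01 in CO8-DA replicates 1, 2 and 3, a log2 difference of 1.37. Psat1g029320, matched to an Avr9/Cf-9 rapidly elicited protein, a class of transcripts induced in tobacco cells by a fungal peptide, had 4, 3 and 12 counts in the control and 115, 100 and 135 after CO8-DA. The peroxidase Psat1g168800 had 1, 1 and 35 counts in the control and 240, 212 and 306 after CO8-DA, a log2 difference of 4.13. In these loci control replicate 3 stands highest among the controls, as in the members. Psat5g246760 and Psat6g020560, with no description in the tables used, also had control replicate 3 as the highest control, with small log2 differences of 0.34 and 0.37, so a high r does not mark the size of a change.

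**Figure D4:**
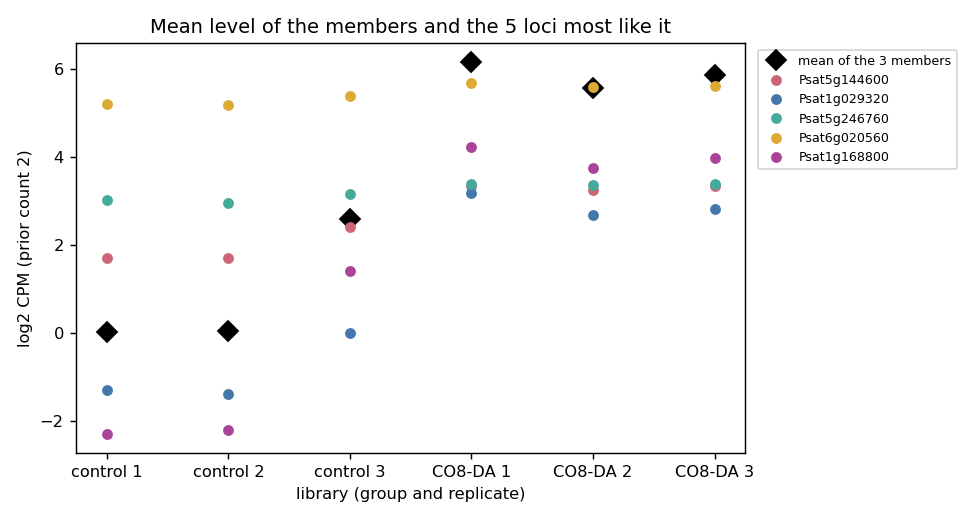
Log2 CPM with a prior count of 2 (y axis) in each library for the mean of the 3 members (black diamonds) and the 5 loci whose values followed it most closely (coloured points). In all 6 profiles control replicate 3 is the highest control and every CO8-DA library lies above every control, while the distance between the groups differs from locus to locus.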

How the data were processed

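Roots of pea seedlings were sequenced as 6 libraries, 3 per group,. The authors used Trimmomatic 0.39 for trimming and Bowtie2 2.4.4 for alignment to the pea genome v1a, and deposited estimated counts per gene from RSEM 1.3.1, without normalization. RSEM spreads reads that fit several loci over them, so 8781 loci hold counts that are not whole (tolerance 0.005).

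After rounding, edgeR 4.0.16 (R 4.3.3) was run on all genes with filterByExpr, TMM scaling, glmQLFit and the two-sided glmQLFTest, and p was adjusted (Benjamini-Hochberg) over 21293 tested genes. Totals of 12315774 to 19534336 counts set the precision. With 3 against 3 libraries an exact permutation test cannot go below 0.1, so levels are given with their SD. The p-values set the group difference against the spread between these samples, which edgeR estimates with information from other genes.

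The members and lists were chosen with earlier results of these data known. Named loci are the members, all tested neighbours by identifier, papain family and inhibitor loci described in the study's tables (2192 loci have a description, one table being at hand in part), up to 6 called loci of other peptidase classes, and the 5 loci with the highest r. Remaining loci of these lists are named to account for every one. Fold changes and adjusted p in those tables are the authors' own and were not used. The RefSeq table matched 0 of the 44756 identifiers, so no marker check was made and no sequence is shown. Alternatives were DESeq2 1.42.0, its size factors, no filter, unrounded counts, a replicate block and each library left out. The fits were first tested on simulated counts. Plots were made with matplotlib 3.10.9.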

Additional observations from a re-analysis of the deposited data

How the results depend on the processing

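The 3 members kept their sign under every setting. With 1 library left out their log2 difference lay between 5.67 and 8.09 for Psat1g198520, 3.03 and 4.68 for Psat1g198600, and 3.56 and 5.86 for Psat1g198680, and that of their summed counts between 3.50 and 5.30, each highest without control replicate 3. Summing all 6 papain family loci in place of the members gave 1.78. The replicate numbers were not taken to pair the libraries, because the study used no pairing. Same-numbered libraries deviated together with r of 0.226, 0.0449 and 0.151. Each library correlated best with its own number except control replicate 2, which had an r of 0.0869 with CO8-DA replicate 3. Whether the numbers mark a pairing was not tested. Replicate numbers come from the sample titles, and the deposited count columns are numbered differently. A pairing by column number was not fitted. With the replicate block 2 neighbours were called higher and 1 lower (the same for the other papain family loci), 2 inhibitors were called higher, and Psat1g198200 had a log2 fold change of -8.63e-05. DESeq2 called 1 neighbour lower, which is also 1 papain family locus lower, 2 inhibitors higher and 1 lower, and 182 of all genes lower, against 105 with edgeR. With 1 library left out, the calls ranged from 1 to 2 higher and 0 to 1 lower for neighbours and for the other papain family loci, from 0 to 1 in each direction for inhibitors, from 0 to 1 lower for other peptidases, and from 338 to 778 higher and 33 to 165 lower over all genes. The cause was not tested. Uncalled neighbours changed sign around 0, with ranges of -0.10 to 0.070 for Psat1g198200, -1.18 to 0.64 for Psat1g198360, -0.34 to 1.04 for Psat1g198400, -0.41 to 0.20 for Psat1g198440, -0.067 to 0.22 for Psat1g198960 and -0.18 to 0.10 for Psat1g199000. No called locus changed sign. A tally covered 21 named loci, the tested neighbours and inhibitors and the called loci of other peptidase classes. Of its 231 values, 191 kept sign and side of the threshold, 9 became calls, 16 lost theirs and 15 changed sign. The members are not in this tally, as their differences were not tested.

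Control counts of 2 in Psat1g198520 limit the precision of its fold change, and read sharing limits the separate values of Psat1g198680, Psat1g198720, Psat1g198760 and Psat1g198800.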
